A study of Mus musculus with 16 samples.

Results

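Krt7, Krt8, Krt18 and Krt19, the keratins of simple epithelia, were followed together with Msln and Cdh3 in the hearts of mice on embryonic day 10.5, as 6 of the 27179 genes counted by RNA sequencing. Msln and Cdh3 are not keratins and were added as genes of mesothelium. The genes were found by symbol, but Krt19 was picked for its values on these same hearts, because it was high in Ing4+/- Ing5-/- hearts. Its values in any comparison with that genotype are therefore a description with no test.

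There were 4 genotypes with 4 embryos each: Ing4+/+ Ing5+/+ (wild-type), Ing4+/- Ing5+/+ (1 Ing4 allele lost), Ing4+/+ Ing5-/- (no Ing5 allele) and Ing4+/- Ing5-/- (3 alleles lost). The ING proteins bind methylated lysine on histone H3 through a PHD finger and belong to histone acetyltransferase complexes. Each library held the RNA of an embryonic heart, so each value averages over all cell types of that heart, and a change in the number of cells of a type and a change in RNA per cell cannot be told apart. The 16 hearts came from 7 litters. Wild-type and Ing4+/+ Ing5-/- embryos never came from the same litter, so that comparison has no value within a litter and a fit with litter as a block reaches it only through the other genotypes.

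Keratins are intermediate filament proteins that assemble only as pairs of a type I chain and a type II chain. In simple, single-layered epithelia the usual type II chains are Krt8 and Krt7, and the usual type I chains are Krt18 and Krt19. The outer layer of the heart, the epicardium, is a mesothelium, a simple epithelium of mesodermal origin that makes these keratins. Heart muscle in the early embryo can also hold Krt8 and Krt18. Msln encodes mesothelin, a glycoprotein on the surface of mesothelial cells, and Cdh3 encodes P-cadherin, a calcium-dependent adhesion molecule.

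In the GRCm38.p6 annotation the genes lay at 4 places. Krt7 (gene ID 110310) was on chromosome 15 from 101412403 to 101427806 on the plus strand, Krt8 (16691) on the same chromosome from 101996711 to 102004342 on the minus strand, and Krt18 (16668) from 102028216 to 102032026 on the plus strand. Krt8 and Krt18 therefore ran away from each other, with 23874 bases and 2 predicted genes between them. Krt19 (16669) lay in the type I cluster on chromosome 11, from 100140810 to 100145926 on the minus strand. Msln (56047) was on chromosome 17 from 25748613 to 25754378 on the minus strand, and Cdh3 (12560) on chromosome 8 from 106510852 to 106556911 on the plus strand, 46439 bases from Cdh1, the gene of E-cadherin.

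The start-site sequences of Krt8 and Krt18 are shown because these neighbouring genes varied together across hearts, and that of Krt7 as the other type II gene of the chromosome. Each is a window of 300 bases around the RefSeq start, most of it upstream, on the gene's own strand of the GRCm38.p6 build. Capitals mark TATAA, the core of a TATA box, and GGGCGG, a GC box, on either strand.
Krt8, chr15:102004293-102004592, minus strand: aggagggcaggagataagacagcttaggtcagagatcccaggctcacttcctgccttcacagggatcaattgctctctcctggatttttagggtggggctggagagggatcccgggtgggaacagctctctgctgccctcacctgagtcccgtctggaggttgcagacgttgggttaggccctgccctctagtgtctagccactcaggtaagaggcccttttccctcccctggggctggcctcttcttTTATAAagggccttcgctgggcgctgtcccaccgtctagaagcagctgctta
Krt18, chr15:102027966-102028265, plus strand: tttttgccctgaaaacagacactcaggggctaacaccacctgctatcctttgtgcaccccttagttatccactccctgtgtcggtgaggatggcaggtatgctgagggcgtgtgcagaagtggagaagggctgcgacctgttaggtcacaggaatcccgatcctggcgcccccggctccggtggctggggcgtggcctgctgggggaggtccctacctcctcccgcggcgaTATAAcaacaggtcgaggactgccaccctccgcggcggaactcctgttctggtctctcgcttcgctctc
Krt7, chr15:101412153-101412452, plus strand: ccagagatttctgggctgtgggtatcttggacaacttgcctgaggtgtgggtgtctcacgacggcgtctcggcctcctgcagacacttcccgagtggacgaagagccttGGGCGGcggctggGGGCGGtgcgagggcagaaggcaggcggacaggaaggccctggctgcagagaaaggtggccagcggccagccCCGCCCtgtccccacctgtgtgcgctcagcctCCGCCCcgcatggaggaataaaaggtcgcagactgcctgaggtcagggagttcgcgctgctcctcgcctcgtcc
Krt8 and Krt18 each held TATAA and no GGGCGG. In Krt18 its first base was 19 bases before the start. In Krt8 it was at the last base before the annotated start, with an overlapping match on the other strand. Krt7 held 4 GGGCGG and no TATAA. The windows also differed in CpG dinucleotides, with 21 in Krt7, 17 in Krt18 and 6 in Krt8, and in base content, with 66.3% G and C in Krt7, 61.3% in Krt18 and 58.0% in Krt8. Neither CCAAT nor TGANTCA, the letters of an AP-1 site, was in these 3 windows. Of 32851 such windows in the RefSeq table, 24.9% held TATAA, 35.7% GGGCGG, 37.4% CCAAT and 7.81% TGANTCA on either strand, so the matches are common ones and describe the letters only. Krt19, Msln and Cdh3 had no entry.

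The libraries held 19753100 to 35664331 counted reads, and 15785 genes passed the filter on low counts, with all 6 genes among them. Levels below are CPM (read counts scaled to a common library size) with TMM scaling factors, as mean ± SD with n = 4 hearts, and fold changes are log2 values ± SE from edgeR's quasi-likelihood test over all 16 hearts. A gene was called where its Benjamini-Hochberg adjusted p over the 15785 genes was under 0.05. The genotype labels were checked on the target genes. Ing5 was 18.5 to 29.3 CPM in the 8 Ing5-/- hearts and 28.9 to 42.3 CPM in the 8 others, with only heart 1 of Ing4+/+ Ing5-/- above the lowest heart with Ing5 alleles. Ing4 was 32.0 to 36.3 CPM in Ing4+/- hearts and 28.2 to 60.7 CPM in Ing4+/+ hearts. The overlap came from wild-type heart 2 alone, at 28.2 CPM, which lay below all Ing4+/- hearts. All other Ing4+/+ hearts were at 42.6 CPM or more. Which part of either gene is deleted is not given in the sources used here, so whole-gene counts check the labels only in part. Genes of heart muscle led the tissue, with Actc1 at 6958 CPM per kb on average. Ing4+/+ Ing5-/- heart 1 stood apart, with a mean log2(CPM + 0.5) of Wt1, Tbx18 and Tcf21, transcription factors of the epicardium, of 7.32 against 5.46 to 6.36 in the other 15 hearts.

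Per kb of gene length, wild-type hearts held Krt19 at 35.7 ± 2.54, Krt8 at 29.3 ± 1.26, Krt7 at 24.7 ± 2.74, Cdh3 at 24.5 ± 1.48, Krt18 at 21.3 ± 1.45 and Msln at 0.452 ± 0.237 CPM per kb. Krt19 was above Krt8 in every wild-type heart, and Krt8 above Krt7. Krt7 and Cdh3 differed by less than their spread, and changed places when wild-type heart 3 was left out. Mesothelin was near the limit of what these libraries could measure, with 7 to 107 reads per heart, against 415 to 3676 for Krt7, 598 to 1940 for Krt18, 851 to 2193 for Krt19, 973 to 2944 for Krt8 and 1708 to 3624 for Cdh3. The other members of the keratin family were almost silent: of 32 further keratin genes 9 passed the filter, led by Krt20 at 3.42, Krt10 at 2.16 and Krt79 at 1.91 CPM per kb, and none was called in any of the 7 comparisons made below. Vimentin and desmin, the intermediate filaments of mesenchyme and of muscle, were far higher than any keratin, with Vim at 467 and Des at 452 CPM per kb.

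**Figure D1:**
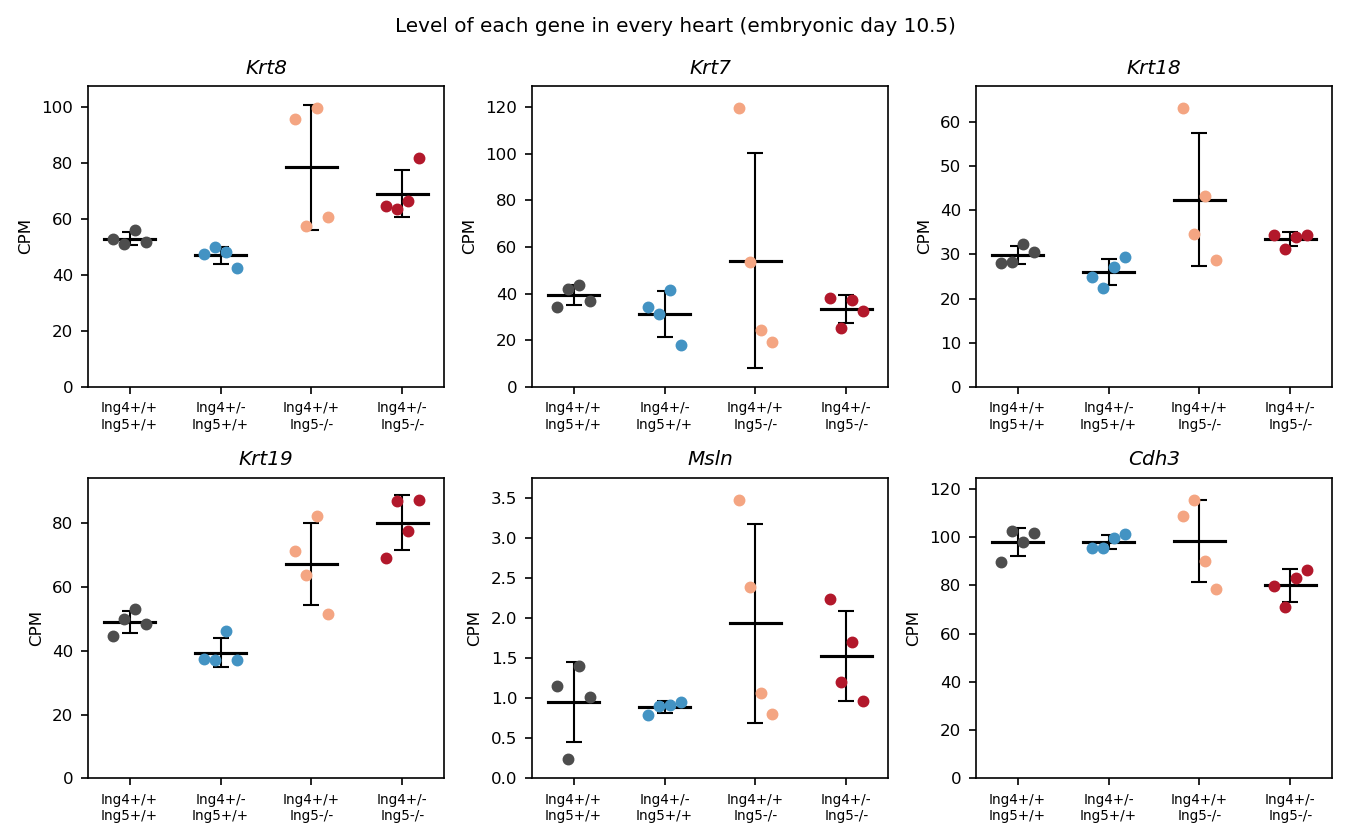
CPM of the 6 genes (vertical axes, linear, from 0) in every heart (points, replicates 1 to 4 from left to right) by genotype (horizontal axes); the long bar is the mean and the whiskers are the SD of 4 hearts. Krt19 is highest on average in Ing4+/- Ing5-/- hearts, from 69.2 to 87.4 CPM, and the Ing4+/+ Ing5-/- hearts are the most spread for Krt7, from 19.1 to 119.6 CPM.

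Krt19, the type I keratin that gave the set its name, was highest on average in Ing4+/- Ing5-/- hearts, at 80.3 ± 8.73 CPM, and lowest in Ing4+/- Ing5+/+ hearts, at 39.4 ± 4.51 CPM. Its level was 44.7, 50.0, 53.1 and 48.5 CPM in the wild-type hearts and 37.4, 37.1, 46.2 and 37.1 CPM in the Ing4+/- Ing5+/+ hearts. It was 71.3, 64.0, 82.4 and 51.5 CPM in the Ing4+/+ Ing5-/- hearts and 69.2, 87.1, 77.5 and 87.4 CPM in the Ing4+/- Ing5-/- hearts. All 4 Ing4+/- Ing5-/- hearts were above all 8 hearts with intact Ing5, while the Ing4+/+ Ing5-/- hearts overlapped both the Ing4+/- Ing5-/- and the wild-type hearts. As a description of the values that chose the gene, Krt19 in Ing4+/- Ing5-/- hearts was 1.64-fold the wild-type level (log2 0.71 ± 0.12), 2.04-fold the Ing4+/- Ing5+/+ level (log2 1.03 ± 0.12) and 1.19-fold the Ing4+/+ Ing5-/- level (log2 0.26 ± 0.12).

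The comparisons without Ing4+/- Ing5-/- hearts gave no call. Both use the wild-type hearts, against which Krt19 rose in Ing4+/- Ing5-/- hearts, so their p-values are not independent of its choice. In Ing4+/+ Ing5-/- against wild-type hearts the log2 fold change was 0.45 ± 0.12 with an adjusted p of 0.32 by edgeR's quasi-likelihood test, with 3 of 4 Ing4+/+ Ing5-/- hearts above all wild-type hearts. Without Ing4+/+ Ing5-/- heart 4 it was 0.56 with an adjusted p of 0.0402, and with litter as a block 0.49 ± 0.20 with an adjusted p of 0.907. In Ing4+/- Ing5+/+ against wild-type hearts it was -0.32 ± 0.12 with an adjusted p of 0.963, with 3 of 4 hearts below all wild-type hearts and heart 3 between them, and -0.18 ± 0.15 with litter as a block.

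Within litters the order of Krt19 was the same wherever an Ing4+/- Ing5-/- heart had a littermate with intact Ing5. In litter 4 it was 87.1 CPM against 37.1 in the Ing4+/- Ing5+/+ and 44.7 in the wild-type heart. In litter 6 it was 77.5 CPM against 46.2 and 48.5, and in litter 7 it was 87.4 CPM against 37.1 in the Ing4+/- Ing5+/+ heart. Against Ing4+/+ Ing5-/- littermates the litters differed: in litter 7 it was 87.4 against 51.5 CPM, and in litter 1 it was 69.2 CPM against a mean of 67.6 CPM of the Ing4+/+ Ing5-/- hearts.

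**Figure D2:**
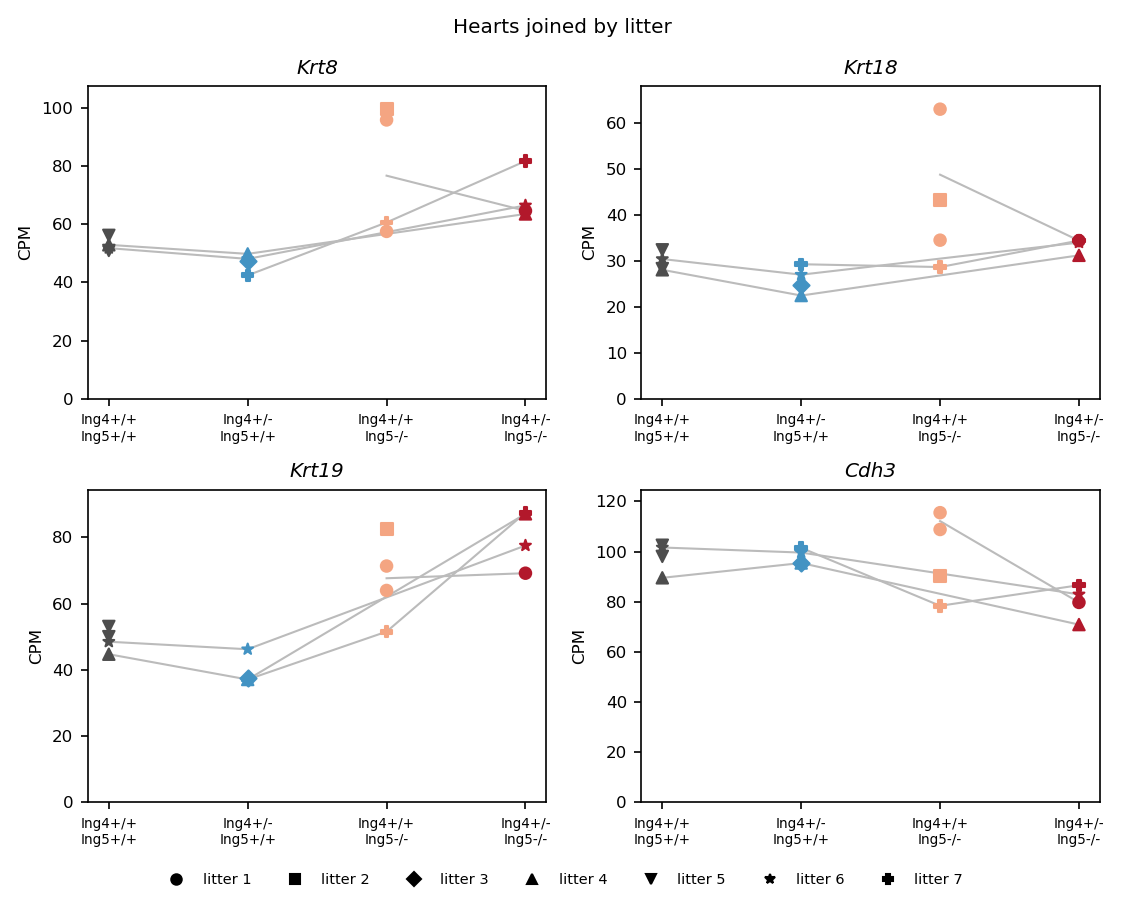
CPM of Krt8, Krt18, Krt19 and Cdh3 (vertical axes, linear, from 0) by genotype; each point is a heart, its shape gives the litter and its colour the genotype, and grey lines join the genotype means of a litter. In litters 4, 6 and 7 the Ing4+/- Ing5-/- heart is above its Ing4+/- Ing5+/+ littermate for all 3 keratins and below it for Cdh3.

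Krt8, the type II partner made in nearly every simple epithelium, was higher in both genotypes that lacked Ing5. It was 52.9, 50.9, 56.1 and 51.7 CPM in the wild-type hearts and 47.4, 49.8, 48.0 and 42.4 CPM in the Ing4+/- Ing5+/+ hearts. It was 95.7, 57.5, 99.4 and 60.6 CPM in the Ing4+/+ Ing5-/- hearts and 64.6, 63.5, 66.4 and 81.6 CPM in the Ing4+/- Ing5-/- hearts. The lowest of the 8 Ing5-/- hearts, at 57.5 CPM, was above the highest of the 8 hearts with Ing5, at 56.1 CPM. The 4 wild-type hearts in turn all lay above the 4 Ing4+/- Ing5+/+ hearts.

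Krt8 was not called in any comparison of single genotypes. In Ing4+/- Ing5-/- hearts it was 0.38 ± 0.15 (log2) above wild-type with an adjusted p of 0.319, and 0.56 ± 0.15 above Ing4+/- Ing5+/+ with an adjusted p of 0.0837. In Ing4+/+ Ing5-/- hearts it was 0.56 ± 0.15 above wild-type with an adjusted p of 0.338, and in Ing4+/- Ing5+/+ hearts it was 0.17 ± 0.15 below wild-type (log2 -0.17) with an adjusted p of 0.963. The comparison with Ing4+/- Ing5+/+ hearts depended on the settings: Krt8 was called in 9 of 29 alternatives, among them DESeq2 with an adjusted p of 0.00939 and a fit of the 2 genotypes alone with 0.00624. It was also called there without Ing4+/+ Ing5-/- heart 1, 2, 3 or 4, with adjusted p-values of 0.0391, 0.0317, 0.0370 and 0.0438. Those hearts are in neither genotype compared, and reach the comparison only through estimates shared by all hearts, such as the spread. Of the 2 main comparisons with wild-type hearts, that of Ing4+/- Ing5-/- was called in the fit of those 2 genotypes alone (adjusted p 0.0129) and that of Ing4+/+ Ing5-/- by DESeq2 (adjusted p 0.0441). A litter block gave no call. For Ing4+/- Ing5-/- hearts it gave 0.54 ± 0.18 against Ing4+/- Ing5+/+ (adjusted p 0.261) and 0.38 ± 0.22 against wild-type (adjusted p 0.745). For Ing4+/+ Ing5-/- against wild-type it gave 0.38 ± 0.29 (adjusted p 0.913).

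A comparison of all 8 Ing5-/- hearts with all 8 Ing5+/+ hearts, averaged over the Ing4 genotypes, was added after these values were seen and uses the same hearts. Krt8 rose there by 0.56 ± 0.10 on the log2 scale, or 1.47-fold, with an adjusted p of 0.00878 by edgeR's quasi-likelihood test. It was the only member called of the 5 tested, in a comparison where 2.13% of all genes were called, and its groups did not overlap, which held for 0.596% of all genes. With litter as a block the difference was 0.46 ± 0.18 and the call was lost, with an adjusted p of 0.361. The call was also lost, at 0.50 with an adjusted p of 0.0675, without the 3 hearts that an earlier analysis of these data had found apart, which were Ing4+/- Ing5+/+ heart 4, Ing4+/+ Ing5-/- heart 1 and Ing4+/- Ing5-/- heart 2. Within litters Krt8 was higher in the Ing4+/- Ing5-/- heart than in its Ing4+/- Ing5+/+ littermate by 0.35, 0.46 and 0.94 on the log2 scale in litters 4, 6 and 7.

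Krt18, the type I chain that pairs with Krt8, had smaller differences. It was 28.1, 28.4, 32.5 and 30.5 CPM in the wild-type hearts and 24.8, 22.5, 27.0 and 29.3 CPM in the Ing4+/- Ing5+/+ hearts. It was 63.1, 34.6, 43.3 and 28.7 CPM in the Ing4+/+ Ing5-/- hearts and 34.5, 31.3, 34.0 and 34.5 CPM in the Ing4+/- Ing5-/- hearts. The Ing4+/- Ing5-/- hearts were close together and all above the Ing4+/- Ing5+/+ hearts, but the lowest of them lay within the wild-type range. The log2 fold change was 0.17 ± 0.17 against wild-type (adjusted p 0.77) and 0.37 ± 0.17 against Ing4+/- Ing5+/+ (adjusted p 0.334). The second value was called at 0.47 (adjusted p 0.0468) without the 3 hearts that stood apart and at 0.56 (adjusted p 0.0151) with the level of epicardial transcription factors, described below, as a covariate. For Ing4+/+ Ing5-/- against wild-type it was 0.51 ± 0.17 (adjusted p 0.402), and over both Ing4 genotypes 0.44 ± 0.12 (adjusted p 0.065). This last value was called in 7 of 28 alternatives, with an adjusted p of 0.0313 without Ing4+/+ Ing5-/- heart 1, 0.0397 without heart 2 and 0.00713 without heart 4, and it was 0.23 with an adjusted p of 0.68 with litter as a block. The block also moved the differences from wild-type, to 0.088 ± 0.25 in Ing4+/- Ing5-/- and 0.20 ± 0.33 in Ing4+/+ Ing5-/- hearts.

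Krt7, the second type II chain, followed a different order. It was 34.5, 41.8, 43.9 and 36.9 CPM in the wild-type hearts and 34.4, 31.4, 41.7 and 18.1 CPM in the Ing4+/- Ing5+/+ hearts. It was 119.6, 53.6, 24.5 and 19.1 CPM in the Ing4+/+ Ing5-/- hearts and 38.3, 25.4, 37.3 and 32.3 CPM in the Ing4+/- Ing5-/- hearts. The Ing4+/+ Ing5-/- hearts spanned from the second lowest to the highest value of all 16, and those of litter 1, hearts 1 and 2, were the 2 highest. The SD in that genotype was 85.1% of the mean, against 11.1% in wild-type hearts. No difference was called: Ing4+/- Ing5-/- hearts were at -0.24 ± 0.47 against wild-type (adjusted p 0.902), 0.09 ± 0.48 against Ing4+/- Ing5+/+ (adjusted p 0.957) and -0.70 ± 0.47 against Ing4+/+ Ing5-/- (adjusted p 0.844). The 95% interval of the first, from -1.27 to 0.79, covers changes in either direction. Ing4+/+ Ing5-/- hearts were at 0.46 ± 0.47 against wild-type (adjusted p 0.773), and at -0.28 without heart 1, and -0.85 without hearts 1 and 2.

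**Figure D3:**
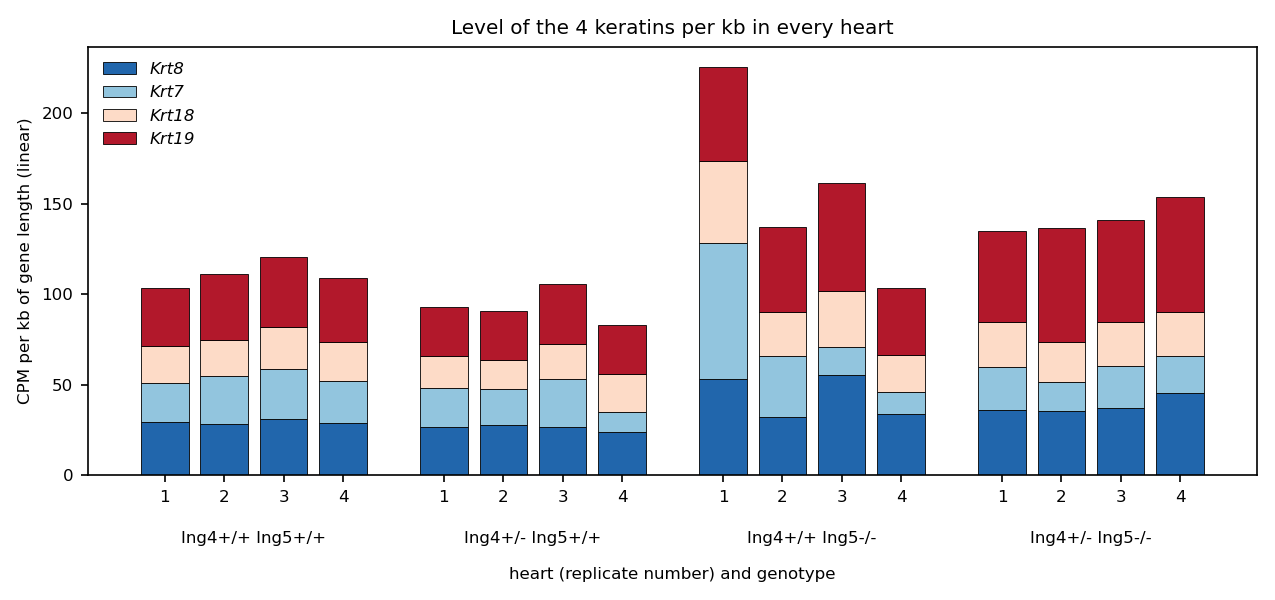
CPM per kb of gene length (vertical axis, linear, from 0) of Krt8, Krt7, Krt18 and Krt19, stacked for each heart (bars, replicates 1 to 4) within each genotype. The Krt19 part of the bar is 37.3 to 46.3% in Ing4+/- Ing5-/- hearts and 31.4 to 32.7% in wild-type hearts, and Ing4+/+ Ing5-/- heart 1 has the tallest bar.

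The makeup of the keratins per length shifted with these levels. Krt19 made up 32.1 ± 0.565% of the CPM per kb of the 4 keratins in wild-type, 30.9 ± 1.56% in Ing4+/- Ing5+/+, 32.6 ± 6.51% in Ing4+/+ Ing5-/- and 41.2 ± 3.77% in Ing4+/- Ing5-/- hearts. In the last genotype every heart, from 37.3 to 46.3%, was above every heart of the other 3, of which Ing4+/+ Ing5-/- heart 3 came closest with 37.1%. Krt7 made up 14.9 ± 2.90% there against 22.2 ± 1.30% in wild-type hearts, and Krt8 26.9 ± 1.68% against 26.4 ± 1.28%. The ratio of type II to type I chains was 0.722 ± 0.0870 in Ing4+/- Ing5-/- against 0.949 ± 0.0267 in wild-type hearts, with no overlap, but the Ing4+/- Ing5+/+ hearts reached down to 0.728. The ratio of Krt19 to Krt18, both type I, was 2.45 ± 0.341 in Ing4+/- Ing5-/-, 1.70 ± 0.369 in Ing4+/+ Ing5-/-, 1.56 ± 0.201 in Ing4+/- Ing5+/+ hearts, and 1.68 ± 0.0825 at wild type. These shares and ratios contain Krt19, if only in the denominator, and are descriptions for the same reason as its levels. The sum of the 4 keratins was 142 ± 8.54 CPM per kb in Ing4+/- Ing5-/-, 157 ± 51.5 in Ing4+/+ Ing5-/-, 93.0 ± 9.59 in Ing4+/- Ing5+/+ hearts, with 111 ± 7.08 at wild type.

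Mesothelin reads were few in every genotype. Msln was 1.16, 0.242, 1.40 and 1.02 CPM in the wild-type hearts and 0.789, 0.904, 0.917 and 0.958 CPM in Ing4+/- Ing5+/+ hearts. It was 3.48, 2.39, 1.07 and 0.804 CPM in Ing4+/+ Ing5-/- and 2.24, 1.20, 1.71 and 0.960 CPM in Ing4+/- Ing5-/- hearts. The Ing4+/- Ing5-/- hearts were all above the Ing4+/- Ing5+/+ hearts, the closest pair being 0.960 and 0.958 CPM, and overlapped the wild-type hearts. The log2 fold change was 0.69 ± 0.48 against wild-type (adjusted p 0.632), 0.78 ± 0.48 against Ing4+/- Ing5+/+ (adjusted p 0.496) and, over both Ing4 genotypes, 0.90 ± 0.34 (adjusted p 0.176). Ing4+/+ Ing5-/- hearts were at 1.03 ± 0.48 against wild-type (adjusted p 0.513), which rested on the hearts of litter 1, and at -0.021 without them. With litter as a block the first 3 differences were 0.26 ± 0.62, 0.35 ± 0.52 and 0.31 ± 0.51, and that of Ing4+/+ Ing5-/- was 0.27 ± 0.82. None of these differences was called, not even 1.03 ± 0.48, so with errors of this size a real change could be missed.

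Cdh3 had its lowest mean, 80.0 ± 6.71 CPM, in Ing4+/- Ing5-/- hearts. It was 89.5, 103, 98.1 and 102 CPM in the wild-type hearts and 95.4, 95.4, 99.6 and 102 CPM in Ing4+/- Ing5+/+ hearts. It was 109, 116, 90.3 and 78.4 CPM in Ing4+/+ Ing5-/- and 79.7, 70.9, 82.9 and 86.6 CPM in Ing4+/- Ing5-/- hearts. All 4 Ing4+/- Ing5-/- hearts lay below all 8 hearts with intact Ing5, whose group means were both 98.0 CPM, and the Ing4+/+ Ing5-/- hearts, with a mean of 98.3 ± 17.0 CPM, spread to both sides. The log2 fold change was -0.29 ± 0.096 against wild-type (adjusted p 0.205), -0.29 ± 0.096 against Ing4+/- Ing5+/+ (adjusted p 0.155) and -0.30 ± 0.096 against Ing4+/+ Ing5-/- (adjusted p 0.614), so Cdh3 was not called. Over both Ing4 genotypes it was -0.14 ± 0.068 (adjusted p 0.286). A litter block gave -0.24 ± 0.10 for it (adjusted p 0.378), and it was called at -0.25 (adjusted p 0.0114) without both Ing4+/+ Ing5-/- hearts of litter 1. Without both Ing4+/+ Ing5-/- hearts of litter 1 the first 2 values stayed at -0.29 and were called, with adjusted p-values of 0.0233 and 0.0228, and the first was also called in the fit of those 2 genotypes alone (adjusted p 0.0325). Within litters Cdh3 was lower in the Ing4+/- Ing5-/- heart than in the Ing4+/- Ing5+/+ heart by 0.43, 0.26 and 0.23 (log2 -0.43, -0.26 and -0.23) in litters 4, 6 and 7. Against Ing4+/+ Ing5-/- littermates the direction differed, at -0.49 in litter 1 and 0.14 in litter 7.

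**Figure D4:**
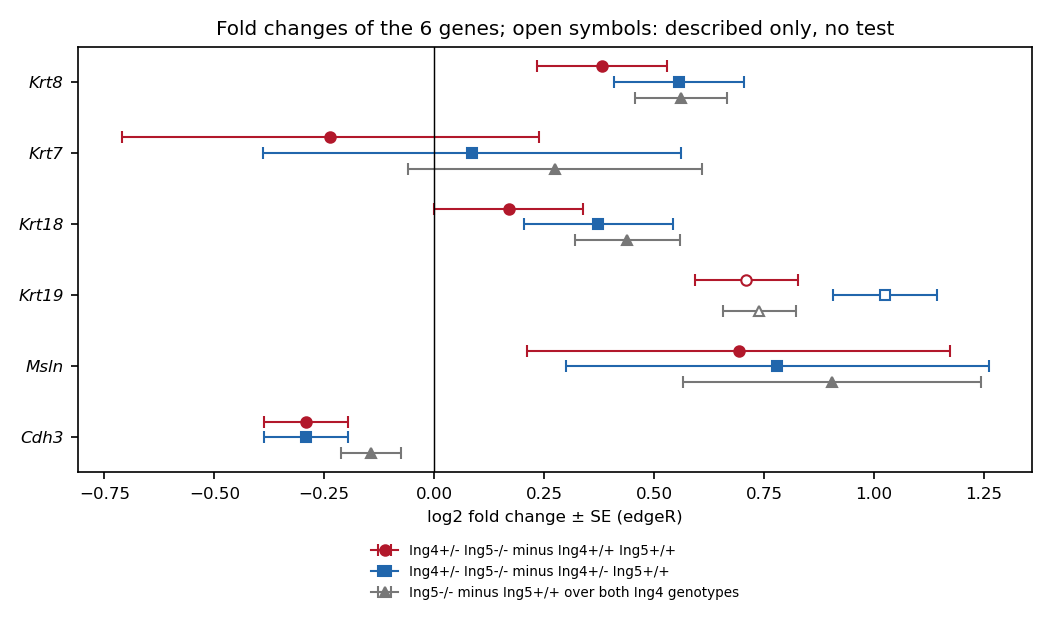
Log2 fold changes (horizontal axis) of the 6 genes (vertical axis) with whiskers of 1 SE from edgeR, for Ing4+/- Ing5-/- against wild-type (circles), Ing4+/- Ing5-/- against Ing4+/- Ing5+/+ (squares) and both Ing5-/- genotypes against both Ing5+/+ genotypes (triangles); open symbols mark Krt19, which was not tested there. Krt8, Krt18, Krt19 and Msln lie right of 0 in all 3 comparisons and Cdh3 left of it, and the whiskers of Krt7 reach both sides.

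Counted together and set beside all genes, the members gave few calls. In Ing4+/- Ing5-/- against wild-type hearts 0 of 5 tested members were called by edgeR, where 0.855% of the 15785 genes were called. An unadjusted p under 0.05 was found for 2 of these members and for 1793 of the 15785 genes. Krt8 and Cdh3 did not overlap between these groups, where 10.2% of all genes did not overlap. DESeq2 and limma-voom called 0 members there too. Against Ing4+/- Ing5+/+ hearts 0 of 5 were called, where 1.16% of all genes were called. At an unadjusted p under 0.05 there were 3 members and 2196 of the 15785 genes. DESeq2 called 1 member there, Krt8, and limma-voom 0. Here Krt8, Krt18, Msln and Cdh3 did not overlap, against 10.1% of all genes. Krt19 did not overlap in either comparison, but it was chosen for its level in Ing4+/- Ing5-/- hearts. It is therefore left out of these counts. The counts of both comparisons share the same 4 Ing4+/- Ing5-/- hearts and are not independent.

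In Ing4+/- Ing5-/- against Ing4+/+ Ing5-/- hearts 0 of 5 members were called by edgeR, DESeq2 or limma-voom. Of all genes 0.00634%, a single gene, were called by edgeR. An unadjusted p under 0.05 was found for 1 member (Cdh3) and for 1047 of the 15785 genes. Krt8 was at -0.18 ± 0.15 there (adjusted p 0.859) and Krt18 at -0.34 ± 0.17 (adjusted p 0.763), and all 6 genes overlapped. In Ing4+/+ Ing5-/- against wild-type hearts 0 of 6 were called by edgeR, where 0.0127% of all genes were called. At an unadjusted p under 0.05 there were 4 members, Krt19 among them, and 1514 of the 15785 genes. The p-values of Krt19 in this comparison and the next are not independent of its choice. DESeq2 called Krt8 there and limma-voom no member. Krt8 alone did not overlap, against 4.74% of all genes. In Ing4+/- Ing5+/+ against wild-type hearts 0 of 6 were called by edgeR, DESeq2 or limma-voom, 1 (Krt19) had an unadjusted p under 0.05, and 0% of all genes were called by edgeR, with 746 at an unadjusted p under 0.05. Krt8 alone did not overlap there, against 3.78% of all genes. The interaction of the genotypes, which asks whether the loss of an Ing4 allele acts differently without Ing5, gave 0 of 5 members by edgeR, DESeq2 or limma-voom, 1 (Cdh3) at an unadjusted p under 0.05, and 0% of all genes by edgeR, with 928 at an unadjusted p under 0.05.

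How the members varied together across the 16 hearts was computed on log2(CPM + 0.5) over 21 relations. Krt8 and Krt18, the pair that fills most simple epithelia, had Pearson's r of 0.834 (permutation p 7e-05, adjusted p 0.000735) and Spearman's rho of 0.832 (adjusted permutation p 0.00133). Without the 2 hearts farthest from the median of Krt8, r was 0.676, and within genotypes, on deviations from the genotype means, it was 0.664. Krt8 and Krt19 had r of 0.83 and rho of 0.90, with 0.902 without 2 hearts and 0.673 within genotypes. Krt18 and Krt19 had r of 0.664 and rho of 0.815, with 0.80 without 2 hearts and 0.528 within genotypes. Krt19 had r of 0.189 with Krt7, 0.439 with Msln and -0.404 with Cdh3. The pairs with Krt19 are given without a test because Krt19 was chosen on these hearts. Krt18 and Msln also passed the test, with r of 0.688 (adjusted permutation p 0.0154), rho of 0.759 (adjusted permutation p 0.00412), 0.597 without 2 hearts and 0.56 within genotypes. Krt8 and Msln passed it by rho alone, 0.615 (adjusted permutation p 0.0375), with r of 0.476 (adjusted permutation p 0.131) and 0.0845 within genotypes. Krt7 and Krt8 had r of 0.313 (adjusted permutation p 0.333), rho of 0.103, and r of -0.413 without 2 hearts. Krt7 and Krt18 had r of 0.575 (permutation p 0.0362, adjusted p 0.0845), 0.625 within genotypes and -0.027 without 2 hearts, so that value rested on those hearts. Hearts of a genotype and of a litter are not independent of each other, and these p-values do not allow for it.

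The members were then set against the mean log2(CPM + 0.5) of Wt1, Tbx18 and Tcf21, which comes from the same libraries and scaling factors. Krt7 rose with it, with r of 0.846 (permutation p 0.00047, adjusted p 0.00329), rho of 0.656 (adjusted permutation p 0.024), 0.61 without the 2 hearts farthest from the median and 0.927 within genotypes. Cdh3 did too, with r of 0.696 (permutation p 0.00214, adjusted p 0.00899), rho of 0.762 (adjusted permutation p 0.00412), 0.683 without 2 hearts and 0.583 within genotypes. Krt8 (r 0.182, adjusted permutation p 0.587), Krt18 (r 0.494, adjusted permutation p 0.138) and Msln (r 0.405, adjusted permutation p 0.189) showed no relation that passed the test. Within genotypes their r was 0.485, 0.769 and 0.629, and without the 2 farthest hearts, Ing4+/+ Ing5-/- heart 1 and Ing4+/- Ing5-/- heart 2, it was -0.477, -0.388 and -0.141. Krt19 had r of -0.171, 0.236 within genotypes and -0.482 without those hearts. With this level as a covariate the Krt7 difference between Ing4+/- Ing5-/- and wild-type hearts was 0.40 ± 0.18 (adjusted p 0.277) in place of -0.24, and the Krt19 difference, described only, stayed within the range of 0.66 to 0.83 that all 29 alternatives gave.

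**Figure D5:**
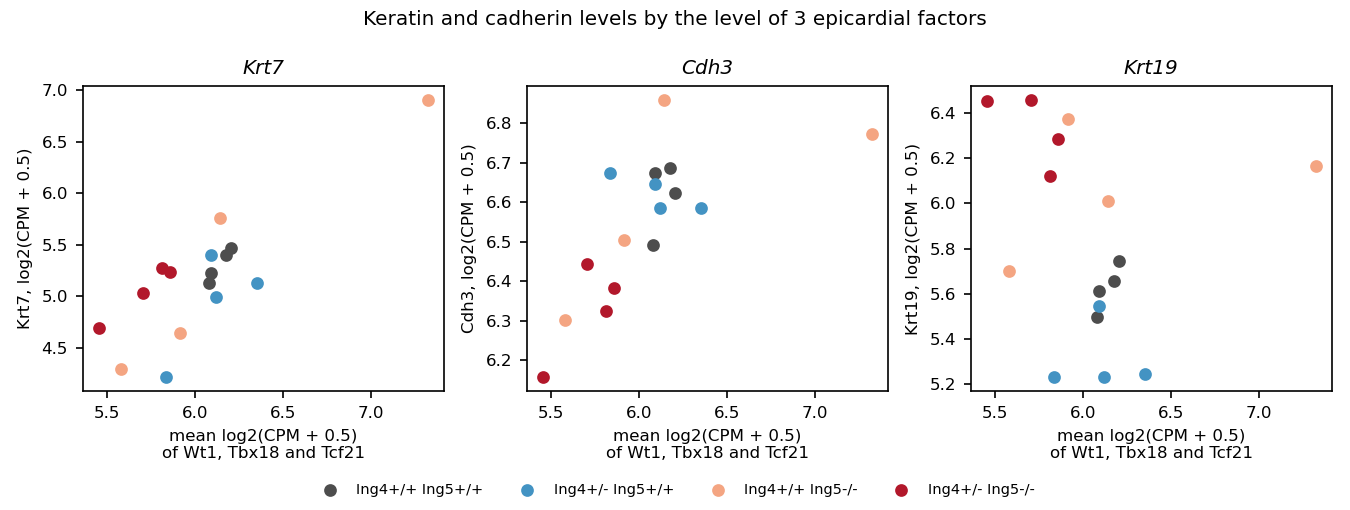
Log2(CPM + 0.5) of Krt7, Cdh3 and Krt19 (vertical axes) against the mean log2(CPM + 0.5) of Wt1, Tbx18 and Tcf21 (horizontal axes) in the 16 hearts, coloured by genotype. Krt7 and Cdh3 rise along the axis, with r of 0.846 and 0.696, and Ing4+/+ Ing5-/- heart 1 lies far right at 7.32. The Ing4+/- Ing5-/- hearts have the highest mean Krt19 together with low epicardial values, from 5.46 to 5.86. Ing4+/+ Ing5-/- heart 4 (5.58) and Ing4+/- Ing5+/+ heart 4 (5.84) also lie in that range, with lower Krt19.

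The epicardial genes themselves were lower in Ing4+/- Ing5-/- than in wild-type hearts without a call. Of 25 tested genes of epicardium and mesothelium 0 were called, 21 had a negative log2 fold change and the median was -0.32, against 0.0027 over all genes. Wt1, Tbx18, Tcf21 and Upk3b were each lower in all 4 Ing4+/- Ing5-/- hearts than in all 4 wild-type hearts. These groups did not overlap for 10.2% of all genes. The log2 fold changes were -0.24 ± 0.26, -0.36 ± 0.30, -0.68 ± 0.35 and -0.57 ± 0.37, with adjusted p-values of 0.501 to 0.787. Against Ing4+/- Ing5+/+ hearts Wt1, Tcf21 and Upk3b overlapped and Tbx18 did not. Against Ing4+/+ Ing5-/- hearts all 4 genes overlapped. The summed level of the list was 1813 to 2170.0 CPM in Ing4+/- Ing5-/- and 2300 to 2487 CPM in wild-type hearts. In Ing4+/- Ing5-/- against Ing4+/+ Ing5-/- hearts the median of the list was -0.59, and in Ing4+/+ Ing5-/- against wild-type hearts 0.23. The part of the epicardial cells in the keratin levels was not tested.

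Other epithelia were looked for by their own genes. Of 28 epithelial genes 18 were tested, with 0 called and a median of 0.33 against wild-type. The summed level was 139 to 170.4 CPM in Ing4+/- Ing5-/- and 137 to 147 CPM in wild-type hearts, and reached 138 to 211 CPM in Ing4+/+ Ing5-/- hearts and 149 to 157 CPM in Ing4+/- Ing5+/+ hearts. The highest gene per length was F11r, an adhesion molecule of tight junctions that other cells make too. Epcam and Cdh1, defining epithelial genes named after their values were seen, were near 0, with means of 0.688 and 0.189 CPM over all hearts. No heart was above 2.24 CPM for Epcam or 1.63 CPM for Cdh1. Cdh1 averaged 0.469 ± 0.775 CPM in Ing4+/- Ing5-/- and 0.203 ± 0.355 CPM in Ing4+/+ Ing5-/- hearts. Its mean was 0.00904 ± 0.0181 CPM in Ing4+/- Ing5+/+ and 0.0752 ± 0.109 CPM in wild-type hearts. Over both Ing4 genotypes 1 epithelial gene rose, Grhl1 (0.47 ± 0.12, adjusted p 0.0412), which encodes a transcription factor of epithelia. Of 22 genes of foregut endoderm and liver bud 9 were tested and 0 called, with a median of 0.42 and sums of 87.5 to 96.1 CPM in Ing4+/- Ing5-/- against 68.0 to 80.4 CPM in wild-type hearts, which did not overlap. They were 75.7 to 116 CPM in Ing4+/+ Ing5-/- and 74.2 to 92.8 CPM in Ing4+/- Ing5+/+ hearts. Over both Ing4 genotypes 2 of them rose, Trf, the gene of transferrin (0.67 ± 0.15, adjusted p 0.033), and Sox17 (0.72 ± 0.18, adjusted p 0.0409), which endothelium also makes. Alb, the albumin gene of liver, averaged 0.426 CPM in Ing4+/- Ing5-/-, 0.705 CPM in Ing4+/- Ing5+/+ and 0.325 CPM among wild-type hearts, but 5.49 CPM in Ing4+/+ Ing5-/- hearts, where 1 heart reached 14.6 CPM. Afp, which embryonic liver and yolk sac make, had another order, with 5.07 CPM in Ing4+/- Ing5+/+ hearts, where 1 heart reached 14.1 CPM, and 0.347 CPM in Ing4+/+ Ing5-/-, 0.0355 CPM in Ing4+/- Ing5-/- and 0.0516 CPM among wild-type hearts. The part of such cells in the keratin levels was not tested.

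Genes of skin and extra-embryonic tissue were measured in the same way. Of 12 genes of surface ectoderm 6 were tested, with a median of 0.11, and 1 fell, Perp (-0.38 ± 0.078, adjusted p 0.0245), a membrane protein of desmosomes, at 63.9 against 83.0 CPM, which also stands in the list of desmosome genes. The sums of the list were 61.8 to 71.6 CPM in Ing4+/- Ing5-/- and 84.8 to 87.7 CPM among wild-type hearts. They lay below wild type while the median was positive. Perp alone, with means of 63.9 and 83.0 CPM, made up most of these sums, so they mainly repeat its fall. The sums were 63.1 to 83.1 CPM in Ing4+/+ Ing5-/- and 76.7 to 85.8 CPM in Ing4+/- Ing5+/+ hearts. Krt14 was at 0.424 and 0.420 CPM in Ing4+/- Ing5-/- and wild-type hearts, and Krt5, its partner, at 0.0762 and 0.0211 CPM. In Ing4+/+ Ing5-/- hearts Krt14 averaged 0.936 ± 0.915 CPM and Krt5 0.636 ± 0.839 CPM. In Ing4+/- Ing5+/+ hearts they averaged 0.359 and 0 CPM. No heart was above 2.28 CPM for Krt14 or 1.82 CPM for Krt5. Of 13 genes of trophoblast and yolk sac 6 were tested and 0 called, with a median of -0.12 and sums of 93.4 to 134 CPM against 132 to 160 CPM (wild-type), which overlapped.

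Genes of the structures that keratins attach to gave 1 call. Of 20 tested genes of desmosomes and keratin linkers, Perp fell and no other was called, with a median of -0.08. Dsp, which encodes desmoplakin and ties keratin or desmin filaments to desmosomes, was the third highest of the list per length at 71.6 CPM per kb. Above it were Krtcap2 and Ywhaq, which do not encode desmosome proteins. Of 19 tested cadherins and catenins other than Cdh3 0 were called (median 0.0035), with Ctnnb1, Ctnna1 and Cdh2 the highest, and of 14 other intermediate filament genes 0 were called (median -0.10). Of 26 tested transcription factors known to act on keratin and epithelial genes, such as Jund, Tead2 and Yap1, 0 were called (median 0.08). Of 24 genes of cardiomyocytes 0 were called (median -0.11), and of 22 genes of dystrophin and costameres, the sites where keratins can join the muscle membrane, 0 were called (median -0.05). Of 16 endothelial genes 0 were called against wild-type (median 0.20), while Sox18 rose against Ing4+/- Ing5+/+ hearts (0.79 ± 0.15, adjusted p 0.00991).

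Genes of low oxygen, macrophages and red blood cells were measured beside the keratins. Of 26 genes of low oxygen and glycolysis 9 rose and 0 fell in Ing4+/- Ing5-/- against wild-type hearts (median 0.47), among them Egln3 (1.18 ± 0.14, adjusted p 0.000273), an oxygen-sensing prolyl hydroxylase, Vegfa (0.98 ± 0.12, adjusted p 0.000524), Aldoc (1.20 ± 0.19, adjusted p 0.00403) and Pgk1 (0.56 ± 0.11, adjusted p 0.0183). The list summed to 12256 to 14309 CPM there and 9601 to 10705 CPM in wild-type hearts. Of 17 tested macrophage genes 9 rose and 0 fell (median 2.20), led by Laptm5 (1.32 ± 0.19, adjusted p 0.00147), with sums of 68.7 to 104.9 against 35.5 to 51.1 CPM. Of 14 tested erythroid genes 0 were called, all had a positive log2 fold change (median 1.09), and the sums of 8009 to 49860 CPM spanned the wild-type range of 9122 to 12125 CPM. In Ing4+/+ Ing5-/- against wild-type hearts 0 genes of these lists were called. The medians there were 0.28 for low oxygen, 1.82 for macrophages and 0.37 for erythroid genes, with 25 of 26, 16 of 17 and 14 of 14 positive. The macrophage sums were 102 and 94.4 CPM in the Ing4+/+ Ing5-/- hearts of litter 1 and 42.5 and 43.2 CPM in hearts 3 and 4. The part of these cells and genes in the keratin levels was not tested.

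The genes most like each member over the 16 hearts, among 11348 other genes with a mean of at least 5 CPM, are given as a description without a test. For Krt19 they were Igfbp3 (r 0.946, rho 0.944), Fam162a (r 0.942, rho 0.874), Galk1 (r 0.926, rho 0.921), Egln3 (r 0.917, rho 0.885) and Trappc6a (r 0.909, rho 0.912), with r of 0.869 to 0.929 without the 2 hearts farthest from the Krt19 median. For Krt8 they were Cacna1s (r 0.923), Ccdc58 (r 0.905), Hmox1 (r 0.891), Notch3 (r 0.878) and Ddah2 (r 0.848), of which Ddah2 was at 0.628 without the 2 farthest hearts. For Krt7 they were Kirrel2 (r 0.96), Itga3 (r 0.949), Slc9a3r2 (r 0.942), Col16a1 (r 0.942) and Nod1 (r 0.937), at 0.869 to 0.929 without 2 hearts. Those of Krt18 (Actn3, Kmt2d, Sh3tc2, Prpf40b and Rsrp1, r 0.838 to 0.877) fell to 0.528 to 0.655 without 2 hearts, and so rested largely on Ing4+/+ Ing5-/- hearts 1 and 3. Cdh3 was closest to Golm1 (r 0.894), Itgb8 (r 0.891), Rcn2 (r 0.863), Sdf4 (r 0.861) and Cdh11 (r 0.856), the last another cadherin. Msln, with its few reads, was closest to Mutyh (r 0.89), Syk, Dennd6b, Irf9 and Fbxw17 (r 0.836 to 0.849).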

How the data were processed

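RNA of 16 embryonic hearts was sequenced as total RNA in stranded libraries, per the labels' protocols. The authors deposited whole, raw read counts for each gene in 1 series table, which matched the 16 tables for each heart. A gene length in bases, deposited beside them, was used for levels per kb. Per the submitters' processing notes, bcl2fastq, featureCounts and the mm10 build were used. The sources used here do not give versions, an aligner or an annotation. Of 27179 gene IDs, 25275 (93.0%) had a symbol in RefSeq for GRCm38.p6, and the others held 2.08% of the reads. The labels state 4 embryonic hearts per genotype, taken as separate embryos. Pairs of hearts of a genotype gave chi-square values, divided by the degrees of freedom, of 5.62 to 87.4, so none was a copy.

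The software was edgeR 4.0.16, DESeq2 1.42.0 and limma 3.58.1 under R 4.3.3. The edgeR filter kept 15785 genes and TMM factors were 0.967 to 1.08. A robust quasi-likelihood model of 4 group means was fitted to all hearts; the robust option was set after the design was written, and its absence is one of the alternatives. Members, gene lists, tests and named genes were chosen with earlier results of these data known. Named are the 6 members, Ing4, Ing5, Wt1, Tbx18, Tcf21, Upk3b, up to 4 called and 3 highest genes of each list, and the 5 genes most like each member. Marker genes near 0 (Epcam, Cdh1, Alb, Afp, Krt5, Krt14) were named after their values were seen. Correlations used 100000 permutations, two-sided. The edgeR steps were tested on simulated data. Alternatives were DESeq2 size factors, no filter, 1 CPM in 4 libraries, only the groups compared, DESeq2, limma-voom, litter or replicate number as a block, epicardial or haemoglobin level as a covariate, and leaving out hearts. Added after seeing the data were the comparison over both Ing4 genotypes, leaving out both Ing4+/+ Ing5-/- hearts of litter 1, and the fit that was not robust.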

Additional observations from a re-analysis of the deposited data

Results flagged for a closer look

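In groups of 4 hearts, a heart was set aside for a closer look where its gap to the nearest heart passed the critical share, for 4 values, of the whole range of its group. Chance does this in about 1 of 20 groups, and 3 of 24 groups did. Krt8 in Ing4+/- Ing5-/- heart 4 was high, at 81.6 CPM with a gap of 0.838 of the range. Krt18 in Ing4+/- Ing5-/- heart 2 was low, at 31.3 CPM with a gap of 0.865. Krt19 in Ing4+/- Ing5+/+ heart 3 was high, at 46.2 CPM with a gap of 0.964.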

How the results depend on the processing

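Over 807 alternative values of the 28 tested fold changes, 765 kept their direction and their side of the threshold, 25 came to pass it, 2 no longer passed it and 15 changed sign, of which 14 were of Krt7. No cause was tested. The 4 fold changes of Krt19 that are described, with no test, kept their direction in all alternatives, at 0.66 to 0.83 against wild-type, 0.96 to 1.11 against Ing4+/- Ing5+/+, 0.15 to 0.37 against Ing4+/+ Ing5-/- and 0.68 to 0.79 over both Ing4 genotypes.

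The count of members called in Ing4+/- Ing5-/- against wild-type hearts was 0, and 2 in the fit of those groups alone and 1 without both Ing4+/+ Ing5-/- hearts of litter 1. Against Ing4+/- Ing5+/+ hearts it was 0, and 1 with DESeq2, with haemoglobin as a covariate and in the fit of those groups alone (each Krt8) and without the 3 hearts that stood apart (Krt18), 2 with the epicardial level as a covariate (Krt8 and Krt18) and without both litter 1 hearts (Krt8 and Cdh3), and 0 to 1 when single hearts were left out. In Ing4+/+ Ing5-/- against wild-type hearts it was 0, 1 with DESeq2 and 0 to 1 without single hearts. Over both Ing4 genotypes it was 1, 0 with a litter block, 2 with DESeq2 and with the epicardial level, 3 without both litter 1 hearts and 1 to 2 without single hearts. Without the 3 hearts that stood apart it was 1 as well, but that gene was Krt18 (0.36, adjusted p 0.014) and not Krt8.

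Krt7 changed sign against wild-type with the epicardial level (0.40), against Ing4+/- Ing5+/+ with a litter block (-0.0076), and against Ing4+/+ Ing5-/- without the 3 hearts (0.15), with the epicardial level (0.43) and without both litter 1 hearts (0.61). In Ing4+/+ Ing5-/- against wild-type hearts it changed sign in the same 3 settings (-0.28, -0.028 and -0.85), and over both Ing4 genotypes without the 3 hearts (-0.14) and without both litter 1 hearts (-0.38). Leaving out single hearts gave -0.10 (without Ing4+/- Ing5+/+ heart 4) to 0.25 against Ing4+/- Ing5+/+, -0.98 to 0.039 (without Ing4+/+ Ing5-/- heart 1) against Ing4+/+ Ing5-/-, -0.28 (without that heart) to 0.75 for Ing4+/+ Ing5-/- against wild-type and -0.095 (without it) to 0.42 over both Ing4 genotypes. Msln in Ing4+/+ Ing5-/- against wild-type hearts was at -0.021 without both litter 1 hearts.

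Of 24 pairs of hearts that share a replicate number, 6 had residuals correlated above 0.1, so the numbers were not taken as pairs. With the replicate block the Krt8 differences were 0.39 against wild-type (adjusted p 0.331), 0.56 against Ing4+/- Ing5+/+ (adjusted p 0.0919) and 0.55 over both Ing4 genotypes (adjusted p 0.0147), and the block changed no call of a member. Residuals of littermates correlated above 0.1 in 3 of 13 pairs. Genes called in all ranged from 15 (litter block) to 465 (only the groups compared) around 135 against wild-type, from 72 (without Ing4+/- Ing5-/- heart 2) to 559 (epicardial level) around 183 against Ing4+/- Ing5+/+, from 0 to 19 (DESeq2) around 1 against Ing4+/+ Ing5-/-, and from 17 (litter block) to 1327 (epicardial level) around 336 over both Ing4 genotypes. For Ing4+/+ Ing5-/- against wild-type hearts they ranged from 0 to 43 (DESeq2) around 2, for Ing4+/- Ing5+/+ from 0 to 4 and for the interaction from 0 to 7. The values of Msln rest on few reads, 7 to 107 per heart.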
